A study of Mus musculus with 4 samples.

Results

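The Snail, Zeb and Twist transcription factors and their companions in epithelial-mesenchymal transition (EMT) were examined in mouse embryonic stem (ES) cells that lack Snai1. The genes were Snai1, Snai2, Snai3, Zeb1, Zeb2, Twist1, Twist2, Prrx1, Foxc2 and Tcf4, and each was read through every probe set that the array's platform annotation assigns to that gene alone. This gave 29 probe sets for the 10 genes, of 45037 probe sets and 18193 named genes in all. Transcripts were measured on 4 single-colour Affymetrix arrays, 2 from Snai1 knockout ES cells and 2 from control ES cells. The controls have F/F in their titles, which the labels do not explain, and the word control as their genotype, although their source name also speaks of a knock out. All cells were grown with leukaemia inhibitory factor (LIF) on feeder cells, and RNA of the whole culture was labelled from its 3' end. The labels give no ES line, clone, Cre or deleted exon, and no age or sex, and they do not say whether the biological replicates were separate clones or separate cultures. The p-values therefore measure the spread between these arrays only.

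EMT is the change by which epithelial cells give up their junctions and become migratory. Snail and Zeb proteins are zinc finger repressors that bind E-boxes, short motifs in the promoters of junction genes such as Cdh1, and recruit corepressors there. Twist proteins are basic helix-loop-helix (bHLH) factors that act as dimers with E proteins, of which Tcf4 (also called E2-2, and not the Wnt effector Tcf7l2) is one. Prrx1 is a homeobox factor and Foxc2 a forkhead factor of mesenchyme. In the embryo, Snai1 is needed for mesoderm to leave the primitive streak, and fibroblasts, the usual feeder cells, express many of these factors.

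In these cultures, 1 of the 29 probe sets passed the test between knockout and control. It was a Tcf4 probe set, 1416724_x_at, which was 3.14-fold higher in the knockout. Another Tcf4 probe set was 2.82-fold higher without passing, and the other Tcf4 probe sets had differences of -0.51 to -0.03. Zeb1 differed by -0.84 on the log2 scale in its bright probe set, lower in the knockout, and passed only in a fit restricted to the brightest probe set of each gene. No probe set of Snai1, Zeb2 or Foxc2 was above background on all 4 arrays. The values follow by gene family, as log2 expression values unless stated, with differences given as knockout minus control.

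The sequence shown is the promoter window of Snai1, because it is the knocked-out gene and because Snail proteins are known to bind the motif marked in it. RefSeq windows of 300 bases (250 before to 50 after the annotated start, build GRCm38.p6) were found for 5 of the 10 genes, with 8 windows among them, for Snai1, Zeb2, Twist1, Twist2 and Prrx1. They were searched on both strands for the Snail E-box CAGGTG, whose reverse complement is CACCTG and which overlaps no other motif searched. The Snai1 window (chr2:167537945-167538244, plus strand) held 1 match, in capitals, which begins 126 bases before the annotated start.

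Snai1 promoter: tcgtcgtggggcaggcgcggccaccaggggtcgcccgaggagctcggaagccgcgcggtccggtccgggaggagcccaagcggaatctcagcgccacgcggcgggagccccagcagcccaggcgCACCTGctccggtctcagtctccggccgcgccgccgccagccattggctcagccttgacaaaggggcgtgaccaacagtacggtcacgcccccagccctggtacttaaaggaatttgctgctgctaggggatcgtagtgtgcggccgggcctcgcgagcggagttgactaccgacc

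The other 7 windows, those of Zeb2, Twist1, Twist2 and Prrx1, held no match. Of all 32851 windows, 20.2% held at least 1. The Snai1 match describes the letters of this window only, and binding there was not tested.

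Background was set by 27 control probe sets for Bacillus transcripts, which mouse RNA should not bind. Their values on the 4 arrays ran from 2.91 to 4.77 with a median of 3.27. A probe set is called above background where it exceeded 4.77. Of the 29 probe sets, 12 from 7 genes (Snai2, Snai3, Zeb1, Twist1, Twist2, Prrx1 and Tcf4) were above background on all 4 arrays, 13 on none, and 4 (of Zeb2 and Prrx1) on some. The 95th percentile of 44 probe sets for olfactory receptor genes, which ES cells are not known for, lay between 4.53 and 4.81 on the 4 arrays. Against this second yardstick the count was also 12. The plot of levels by array shows how much of the family lies in or next to the background range.

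**Figure D1:**
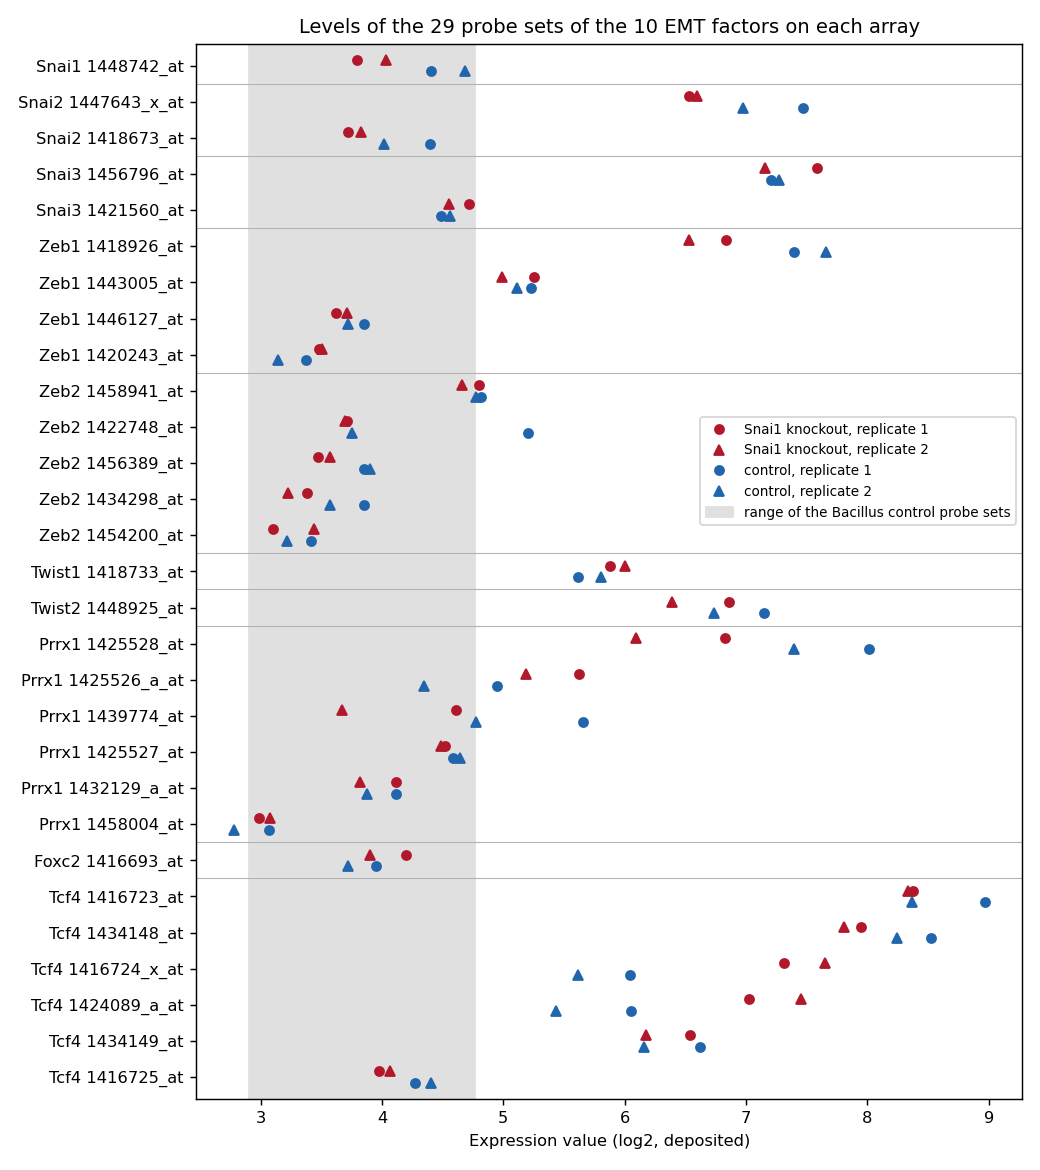
Log2 expression value (x axis) of each of the 29 probe sets (rows) on the 2 knockout arrays (red, upper of each pair) and the 2 control arrays (blue, lower). The grey band runs over the values of the Bacillus probe sets, 2.91 to 4.77. The Snai1 and Foxc2 points all lie in the band, and the Tcf4 probe sets 1416724_x_at and 1424089_a_at are the bright ones in which both knockout arrays lie well to the right of both control arrays.

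Over all 45037 probe sets, limma called 246 (0.546%) at an adjusted p of 0.05, with 198 (0.440%) higher and 48 (0.107%) lower in the knockout. Among the 29, 1 was called higher and 0 lower. At an unadjusted limma p of 0.05, 13 of the 29 passed, 3 higher and 10 lower, against 19.5% of all probe sets in either direction. By direction, the shares among the brightest probe sets of all 18193 genes were 8.79% higher and 14.4% lower. The 10 lower ones include probe sets of Snai1, Snai2, Zeb2 and Tcf4 that were in the background range on every array. A gene with several probe sets can count more than once. In 13 of the 29 both knockout arrays lay below both control arrays, and in 5 both lay above, against 26.0% and 23.5% of all probe sets. Of those 13 lower ones, 7 were in the background range on every array. Among the 12 probe sets above background on all arrays, 4 were separated downward and 3 upward. The shares among all 22068 such probe sets were 33.4% and 25.7%, so the counts of 4 and 3 of 12 lay near those of other probe sets of that kind. The median difference of the 12 was -0.18, against -0.03 over the 22068.

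**Figure D2:**
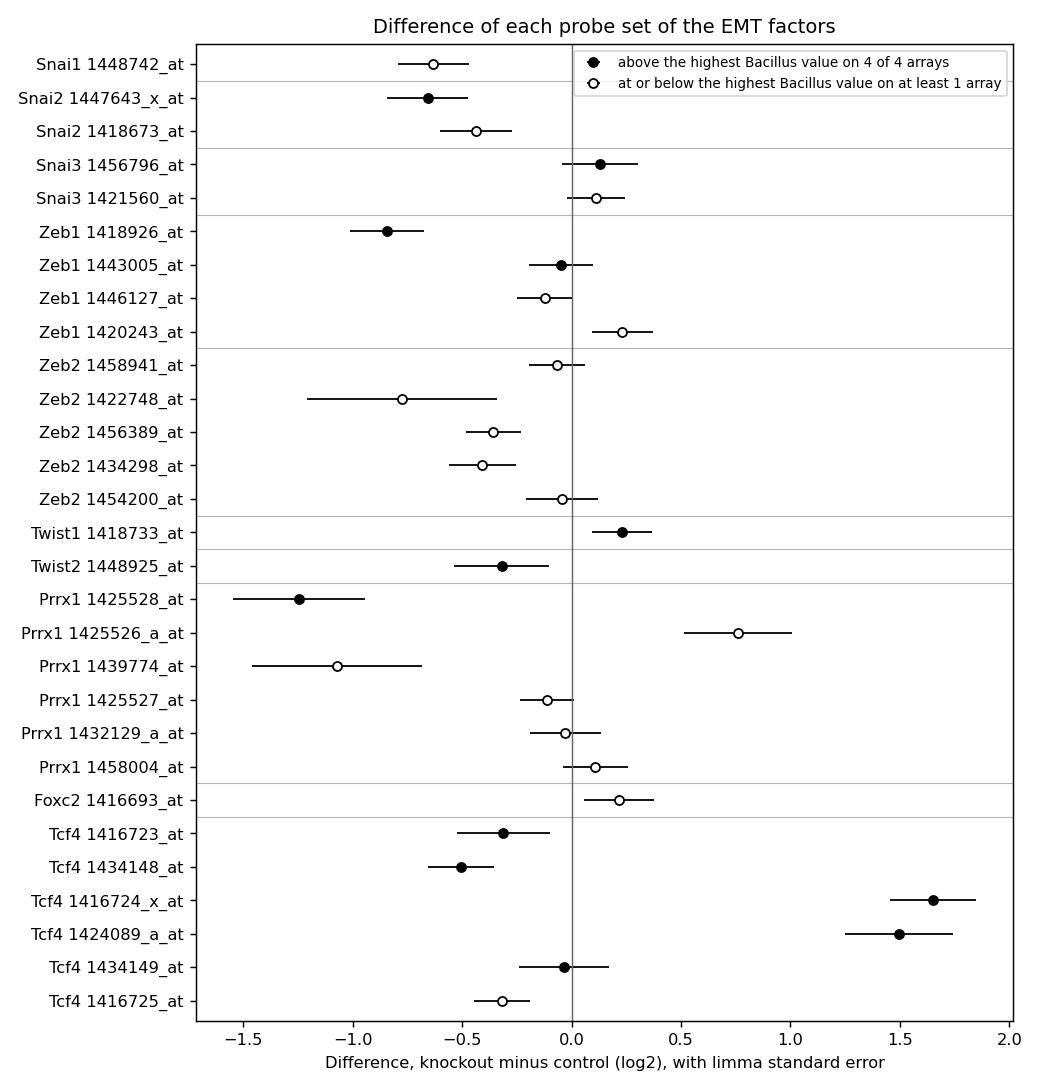
Difference between knockout and control (x axis, log2, knockout minus control) of each probe set (rows), with limma's moderated standard error as the bar. Filled points were above background on 4 of 4 arrays. Differences run from -1.24 (Prrx1 1425528_at) to 1.65 (Tcf4 1416724_x_at), and probe sets of Prrx1 and of Tcf4 lie on both sides of 0.

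In the Snail family, Snai1 encodes the zinc finger repressor that the knockout targets. Its 1 probe set, 1448742_at, was at 3.79 and 4.04 in the knockout arrays and at 4.41 and 4.69 in the control arrays. Both knockout arrays were lower, but all 4 values lay in the background range. The difference was -0.63 ± 0.16 (SE, n = 2 each, limma adjusted p = 0.107). Which part of Snai1 was removed is not stated in the labels, so this probe set does not check the genotype.

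Snai2 encodes Slug, a close relative that represses many of the same junction genes in other settings. Its probe set 1447643_x_at was at 6.53 and 6.60 in the knockout arrays and at 7.47 and 6.98 in the control arrays. The groups did not overlap, and the difference was -0.66 ± 0.19 (SE, adjusted p = 0.130). The suffix _x marks a probe set some of whose probes also match other transcripts. The Snai2 probe set without that suffix, 1418673_at, was at 3.72 and 3.82 in the knockout and at 4.40 and 4.02 in the control. These 4 values lay in the background range, so the higher readings of Snai2 rest on a probe set that can take up other RNA.

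Snai3, a less studied member known from muscle and blood cells of the mouse, did not separate the groups. Its brighter probe set, 1456796_at, was at 7.59 and 7.15 in the knockout and at 7.21 and 7.27 in the control, a difference of 0.13 ± 0.17 (SE, adjusted p = 0.760). Its other probe set, 1421560_at, lay between 4.49 and 4.72 on the 4 arrays, in the background range. The control pair sat between the 2 knockout arrays in the brighter probe set, so nothing in these data sets knockout apart from control for Snai3.

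Zeb1 and Zeb2 encode large zinc finger repressors that are themselves held down in epithelial cells by microRNAs of the miR-200 family. Zeb1 was read by 4 probe sets. The bright one, 1418926_at, was at 6.84 and 6.53 in the knockout arrays and at 7.39 and 7.66 in the control arrays. Both knockout arrays were lower than both control arrays, by -0.84 ± 0.17 (SE, n = 2 each). With all 45037 probe sets tested this did not pass (limma adjusted p = 0.0733). With only the brightest probe set of each of 18193 genes tested it passed (limma adjusted p = 0.0453), in a fit that called 4.14% of genes. With each array left out in turn, the difference ran from -0.995 to -0.690. Such a fit holds 1 array in a group and cannot decide whether the probe set passes, so only its difference is given.

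The other Zeb1 probe set above background, 1443005_at, was at 5.26 and 4.99 in the knockout and at 5.23 and 5.11 in the control. It showed no separation (difference -0.05 ± 0.15, SE, adjusted p = 0.908). The remaining Zeb1 probe sets, 1446127_at and 1420243_at, lay between 3.14 and 3.85, in the background range, with differences of -0.12 and 0.23. The lower Zeb1 reading thus comes from 1 of the 2 probe sets that were above background.

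Zeb2 was read by 5 probe sets, none of which was above background on all 4 arrays. The highest on average, 1458941_at, was at 4.80 and 4.66 in the knockout and at 4.82 and 4.78 in the control, at the edge of the background range, with a difference of -0.06 ± 0.13 (SE, adjusted p = 0.848). Probe set 1422748_at was at 3.71 and 3.69 in the knockout and at 5.21 and 3.75 in the control. There 1 array, control replicate 1, stood apart from the other 3. Without that array the difference was -0.05, against -0.78 with all arrays. Probe sets 1456389_at and 1434298_at differed by -0.36 and -0.41 (adjusted p = 0.195 and 0.219), and 1454200_at by -0.05, all at values between 3.11 and 3.91.

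Among the bHLH factors, Twist1, a regulator of cranial mesenchyme and neural crest, was read by 1418733_at at 5.88 and 5.999 in the knockout arrays and at 5.62 and 5.80 in the control arrays. Both knockout arrays were higher, by 0.23 ± 0.14 (SE, adjusted p = 0.440). Twist2, its close relative in dermis, was read by 1448925_at at 6.86 and 6.39 in the knockout and at 7.15 and 6.73 in the control. These groups overlapped, and the difference was -0.32 ± 0.22 (SE, adjusted p = 0.503). In Twist2 replicate 1 exceeded replicate 2 by 0.47 in the knockout and by 0.41 in the control, and both gaps were larger in size than the difference between the groups.

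Tcf4 was read by 6 probe sets, 5 of them above background on all arrays, and these moved apart. Probe set 1416724_x_at was at 7.31 and 7.65 in the knockout arrays and at 6.04 and 5.62 in the control arrays. It rose in the knockout by 1.65 ± 0.20 (SE, n = 2 each, limma adjusted p = 0.0470) and was higher in both knockout arrays. As with Snai2, the suffix _x means that some of its probes also match other transcripts, so this reading can take up other RNA. Probe set 1424089_a_at, whose suffix _a marks probes shared by transcript variants of the gene, was at 7.02 and 7.45 in the knockout and at 6.05 and 5.43 in the control. Its difference of 1.49 ± 0.25 (SE) had an adjusted p of 0.0600 and did not pass. These 2 probe sets ran side by side on every array, never more than 0.29 apart.

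The other Tcf4 probe sets did not share this direction. Probe set 1416723_at was at 8.38 and 8.33 in the knockout and at 8.97 and 8.37 in the control (difference -0.31 ± 0.21, SE, adjusted p = 0.501). Probe set 1434148_at was at 7.95 and 7.81 in the knockout and at 8.52 and 8.24 in the control (-0.51 ± 0.15, SE, adjusted p = 0.142). Its groups did not overlap, and the knockout was the lower one. Probe set 1434149_at, designed on the same sequence record as 1434148_at, was at 6.54 and 6.18 in the knockout and at 6.62 and 6.16 in the control, a difference of -0.03. The last, 1416725_at, lay between 3.98 and 4.40, in the background range, with a difference of -0.32.

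The rise of 1416724_x_at kept its direction with any 1 array left out. The difference was 1.82 without knockout replicate 1 and 1.48 without knockout replicate 2. It was 1.86 without control replicate 1 and 1.44 without control replicate 2. The call itself rests on all 4 arrays. A fit with 1 array in a group cannot decide whether it holds. In such a fit the lone array is assumed to vary like the pair of the other group. The deposited file holds no probe positions, so the part of the Tcf4 transcript that each probe set reads was not analysed here.

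Prrx1 was read by 6 probe sets, and they also pointed both ways. Probe set 1425528_at, the only one above background on all arrays, was at 6.83 and 6.09 in the knockout arrays and at 8.02 and 7.39 in the control arrays. Both knockout arrays were lower, by -1.24 ± 0.30 (SE, n = 2 each, adjusted p = 0.0973). Probe set 1439774_at was at 4.61 and 3.67 in the knockout, within the background range, and at 5.65 and 4.77 in the control (-1.07 ± 0.39, SE, adjusted p = 0.205). Probe set 1425526_a_at went the other way, at 5.62 and 5.18 in the knockout and at 4.95 and 4.34 in the control (0.76 ± 0.25, SE, adjusted p = 0.165). It was designed on the same sequence record as 1425528_at. Another from that record, 1425527_at, lay between 4.49 and 4.64, in the background range, with a difference of -0.11. The last Prrx1 probe sets, 1432129_a_at and 1458004_at, stayed between 2.78 and 4.12.

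Foxc2, a forkhead factor of mesoderm and lymphatic vessels, was read by 1 probe set, 1416693_at, at 4.20 and 3.90 in the knockout and at 3.95 and 3.72 in the control. All 4 values lay in the background range, the groups overlapped, and the difference was 0.22 ± 0.16 (SE, adjusted p = 0.546).

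How far apart the Tcf4 and Prrx1 probe sets stood was followed array by array, for pairs chosen after their values were seen. Each pair was the brightest probe set of the gene minus one of opposite direction that was above background on most arrays. The gap between Tcf4 1416723_at and 1416724_x_at was 1.07 and 0.68 in the knockout arrays, against 2.92 and 2.75 in the control arrays. With 1424089_a_at in place of 1416724_x_at the Tcf4 gap was 1.36 and 0.88 in the knockout, against 2.92 and 2.93 in the control. The gap between Prrx1 1425528_at and 1425526_a_at was 1.20 and 0.91 in the knockout, against 3.07 and 3.05 in the control. That the gap was narrower in the knockout follows from this choice of pairs, so the per-array values describe the differences already given and are no further result.

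The array's own control probe sets for the ends of abundant transcripts also had narrower gaps in both knockout arrays than in both control arrays. The 3' probe set of Actb, which encodes beta-actin, exceeded its 5' probe set by 1.11 and 0.80 in the knockout arrays, against 3.02 and 2.97 in the control arrays. For Gapdh, a glycolytic enzyme, this gap was 0.40 and 0.27 in the knockout, against 1.24 and 1.48 in the control. A 3' to 5' gap of this kind is used as a measure of RNA integrity and of labelling length. Removal of a smooth trend of the values with gene span and level, array by array, left the Tcf4 differences at 1.77 for 1416724_x_at and 1.61 for 1424089_a_at (limma adjusted p = 0.0375 and 0.0477). The same removal moved 1416723_at from -0.31 to -0.10 and 1434148_at from -0.51 to -0.31. The span is that of the whole gene and holds nothing on where in the transcript a probe set lies. The removal therefore could not take out a 3' to 5' gap within a gene. The part of the 3' to 5' gap itself in the opposite directions of the Tcf4 and Prrx1 probe sets was not tested. Nor was its part in any other difference between knockout and control given here.

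**Figure D3:**
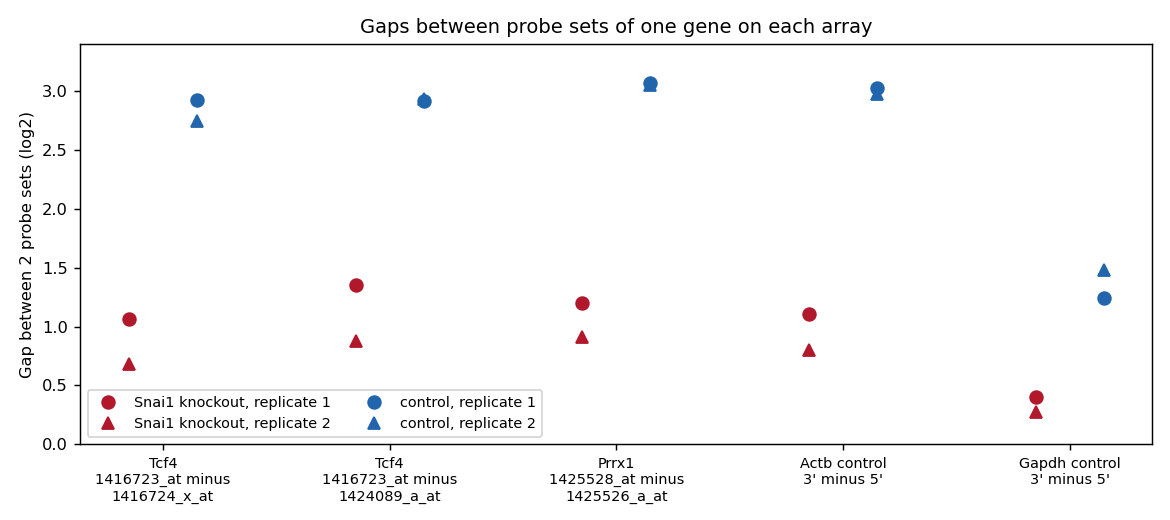
Gap between 2 probe sets of one gene (y axis, log2) on each knockout array (red, left of each pair) and control array (blue, right), for Tcf4, Prrx1 and the 3' and 5' control probe sets of Actb and Gapdh. The Tcf4 and Prrx1 pairs were chosen after their values were seen, so their narrower gaps in the knockout follow from the choice. These gaps lie between 0.68 and 1.36 in the knockout and between 2.75 and 3.07 in the control. The Actb gap was 1.11 and 0.80 in the knockout, against 3.02 and 2.97 in the control. The Gapdh gap was 0.40 and 0.27 in the knockout, against 1.24 and 1.48 in the control.

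Among 4895 genes with at least 2 probe sets above background on all arrays, the median range between the differences of one gene's probe sets was 0.44. The range was 2.16 for Tcf4, and 67 of these genes (1.37%) had a range as wide or wider. The Tcf4 range is over 5 probe sets, and a range grows with their number, so it is not like for like with genes that have fewer. It was 0.79 for Zeb1, which 21.9% of the genes reached. Probe sets of one gene on both sides of 0 were found in 49.3% of the genes.

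Feeder cells were part of the cultures and fibroblasts can express these factors, so a list of 15 measured fibroblast markers was read beside them. In bulk RNA, fewer cells of a type and less RNA per cell cannot be told apart. The mean level of the markers was 7.36 in replicate 1 and 6.69 in replicate 2 of the knockout, against 7.54 in replicate 1 and 6.91 in replicate 2 of the control. Replicate 1 was the higher one for 13 of 15 markers in the knockout and for 14 of 15 in the control. Over all 18193 genes it was the higher one for 9360 in the knockout and for 7626 in the control. Other lists read below ranged from upstream signals (15 of 16 in the knockout, 11 of 16 in the control) to neural genes (4 of 7 and 3 of 7). Of the markers, 12 were above background on all arrays, and Fap was above it on none. None passed between knockout and control with limma (0 higher and 2 lower at an unadjusted p of 0.05). The largest difference was that of the collagen Col5a2, -0.93 ± 0.48 (SE, adjusted p = 0.365), and the median difference was -0.21.

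Some of the EMT factors had the same order of replicates and some did not. Prrx1 1425528_at was higher in replicate 1 by 0.74 in the knockout and by 0.62 in the control, against median gaps of 0.73 and 0.56 for the fibroblast markers. Twist2 had gaps of 0.47 in the knockout and 0.41 in the control, and Tcf4 1434149_at of 0.36 and 0.46. Tcf4 1416723_at (0.05 and 0.60) and 1434148_at (0.14 and 0.28) had the same order. Tcf4 1416724_x_at (-0.34 and 0.43) and 1424089_a_at (-0.43 and 0.62) did not. Zeb1 1418926_at had gaps of 0.30 in the knockout and -0.27 in the control, and Snai2 1447643_x_at of -0.06 and 0.49. Twist1 was lower in replicate 1 in both groups, by -0.12 and -0.19. The part of feeder RNA in the levels of Prrx1, Twist2 and Tcf4 was not tested.

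**Figure D4:**
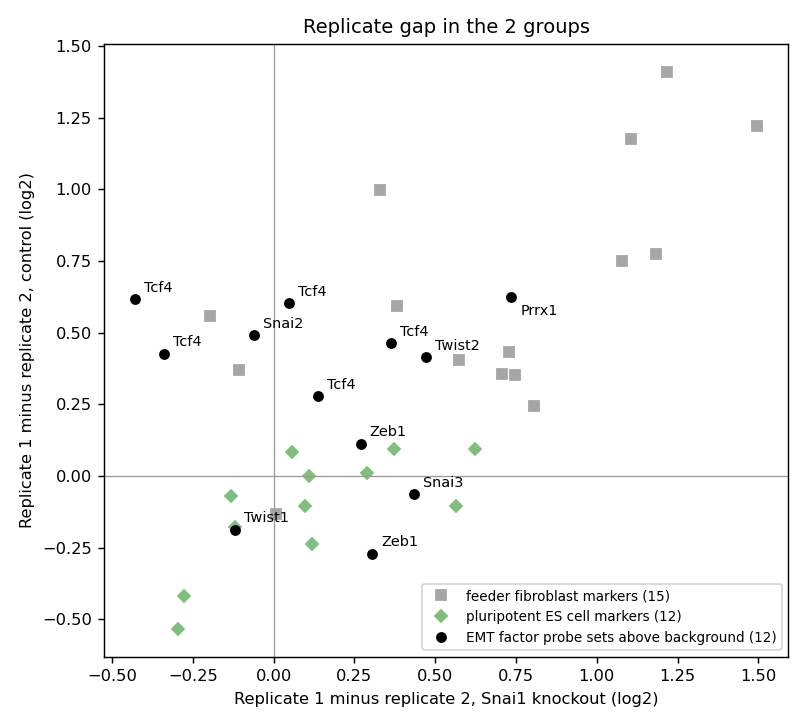
Replicate 1 minus replicate 2 in the knockout (x axis, log2) against the same gap in the control (y axis, log2), for the 12 EMT factor probe sets above background (black), 15 fibroblast markers (grey squares) and 12 ES cell markers (green diamonds). Prrx1 and Twist2 lie with the fibroblast markers in the upper right, and Zeb1 1418926_at, Snai3 and Twist1 lie below 0 on the control axis.

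The labelled cell type was checked against 12 ES cell markers, all of which were above background on all arrays. Their mean level was 11.40 and 11.28 in the knockout, against 10.94 and 11.06 in the control. Of these, 1 was called higher with limma and 0 lower: Utf1, which binds chromatin in undifferentiated cells, with a difference of 1.62 ± 0.14 (SE, adjusted p = 0.0293). Pou5f1, which encodes Oct4, was at 13.07 and 12.98 in the knockout and at 12.12 and 12.23 in the control (adjusted p = 0.0559). Nanog was at 11.53 and 11.25 in the knockout and at 10.46 and 10.45 in the control (adjusted p = 0.0566). Both were separated upward without passing in the fit over all probe sets. In the fit over brightest probe sets both passed (limma adjusted p = 0.0340 each). There 4 of the 12 markers were called higher, against 360 of all 18193 genes.

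Markers of cell types that carry Snail, Zeb or Twist factors in the embryo were read the same way. None of 8 primitive streak and mesoderm markers passed (0 at an unadjusted p of 0.05), 3 were in the background range on all arrays, and the largest difference was that of Mesp1 (0.29). None of 8 primitive endoderm markers passed (1 higher and 1 lower unadjusted), 4 were above background on all arrays, and the median difference was 0.02. The largest difference was that of Pdgfra, -0.84 ± 0.20 (SE, limma adjusted p = 0.0916). Sox17, above background on 2 arrays only, went the other way, by 0.40. None of 7 neural crest and neural markers passed (1 higher and 1 lower unadjusted), with Pax6 at -0.68 ± 0.13 (SE, adjusted p = 0.0673). In the fit over brightest probe sets these 3 lists had 0, 0 and 1 calls, the 1 being Pax6.

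The genes that work with the EMT factors were read through the brightest probe set of each gene, in 7 lists with 108 measured genes. Of all 18193 brightest probe sets 0.500% were called, and 1 of the 108 was called, which was higher. In the fit restricted to brightest probe sets 6 of the 108 (5.56%) were called, 5 higher and 1 lower. Of all 18193 genes in that fit 4.14% were called, 360 higher and 394 lower. At an unadjusted p of 0.05 in the fit over all probe sets, 8.79% of all genes were higher and 14.4% lower, the shares against which the unadjusted counts of the lists are to be read. The plot of the lists shows the spread of their differences.

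**Figure D5:**
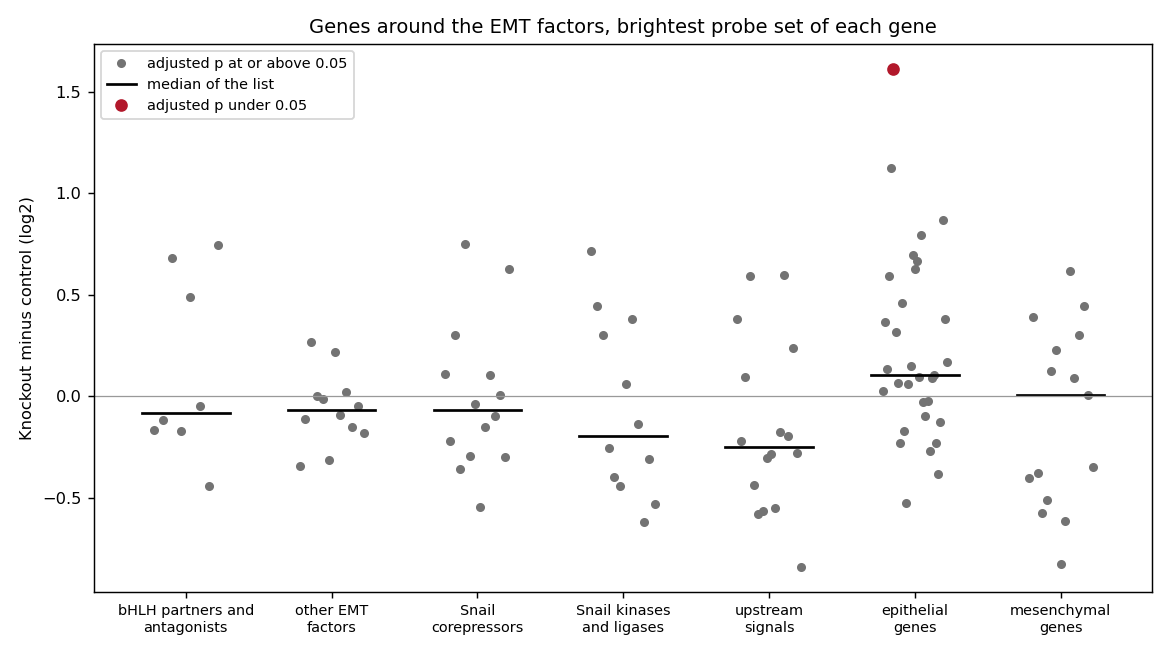
Difference between knockout and control (y axis, log2, knockout minus control) of each measured gene in 7 lists of genes around the EMT factors, with the median of each list as a bar. Only Cldn6 (red) passed in the fit over all probe sets, and the list medians lie between -0.25 and 0.11.

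The dimer partners and antagonists of the bHLH factors had 0 of 8 genes past the threshold (limma, 2 higher and 1 lower at an unadjusted p of 0.05) and a median difference of -0.08, against -0.02 over all genes. Tcf3, which encodes the E proteins E12 and E47, was at 9.58 and 9.54 in the knockout and at 8.58 and 9.05 in the control (0.75 ± 0.18, SE, adjusted p = 0.0999). Among other EMT transcription factors 0 of 12 passed, also at an unadjusted p. The largest difference was that of Etv5, an FGF-responsive ETS factor, at -0.34.

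Among Snail corepressors 0 of 14 passed (2 higher and 2 lower unadjusted), and all 14 were above background. Ehmt2, the G9a histone methyltransferase that Snail can recruit, was at 9.69 and 9.71 in the knockout and at 8.74 and 9.15 in the control (0.75 ± 0.17, SE, adjusted p = 0.0867). Among kinases, ubiquitin ligases and stabilisers of Snail 0 of 12 passed (2 higher and 4 lower unadjusted). Btrc, the ligase subunit that marks phosphorylated Snail for destruction, was at 6.59 and 6.49 in the knockout and at 5.73 and 5.91 in the control. Its difference of 0.71 ± 0.13 (SE) had an adjusted p of 0.0677, and of 0.0448 in the fit over brightest probe sets. Among upstream signals 0 of 16 passed (3 higher and 5 lower unadjusted), with a median of -0.25. The TGF-beta receptor Tgfbr2 was at 6.63 and 5.87 in the knockout and at 7.31 and 6.88 in the control (-0.84 ± 0.28, SE, adjusted p = 0.173).

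On the target side, 1 of 31 epithelial genes that Snail or Zeb repress in other settings was called higher and 0 lower (7 higher and 2 lower unadjusted), with a median difference of 0.11. It was Cldn6, a tight junction claudin of early epithelium, at 8.54 and 8.41 in the knockout and at 6.94 and 6.78 in the control (1.61 ± 0.13, SE, adjusted p = 0.0293). In the fit over brightest probe sets 4 of the 31 were called higher and 0 lower, against 360 higher and 394 lower of all 18193 genes. Cdh1, which encodes E-cadherin, was at 12.30 and 11.98 in the knockout and at 12.26 and 11.97 in the control, so its values overlapped almost fully. Epcam was at 12.10 and 11.96 in the knockout and at 12.10 and 12.31 in the control (-0.17 ± 0.14, SE).

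Among 15 mesenchymal genes none passed (0 higher and 1 lower unadjusted), and the median difference was 0.00. The integrin Itgb3 had the largest difference, -0.82 ± 0.18 (SE, adjusted p = 0.0789), and passed only in the fit over brightest probe sets (adjusted p = 0.0487). Vim was at 11.79 and 11.17 in the knockout and at 12.11 and 11.54 in the control, and Cdh2, which encodes N-cadherin, at 7.94 and 6.87 in the knockout and at 8.26 and 7.57 in the control. Both overlapped between groups and were higher in replicate 1 of each group. Replicate 1 was the higher one for 14 of the 15 mesenchymal genes in the knockout and for 14 of 15 in the control. Over all 18193 genes it was the higher one for 9360 in the knockout and for 7626 in the control.

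For each factor above background on all arrays, the genes of these lists with the most similar course over the 4 arrays were found among 138 genes above background. Likeness was the root mean square difference (log2) of values centred on their own mean, with 4 arrays behind each value. It is small between any genes that vary little over the arrays, so its sizes are not comparable between factors. For Zeb1 they were Pax6 (0.13) and Esrp1 (0.17), an epithelial splicing regulator. For Prrx1 they were Tgfbr2 (0.21) and Pdgfra (0.26), and for Twist2 they were Notch1 (0.07) and Vim (0.08). Snai2 was nearest to Hdac2 (0.15) and Smad3 (0.16), Snai3 to Itga5 (0.06) and Ajuba (0.07), and Twist1 to Sox10 (0.06) and Dppa5a (0.06). The brightest Tcf4 probe set was nearest to Suz12 (0.05) and Dcn (0.12).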

How the data were processed

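Transcripts of Snai1 knockout and control mouse ES cells were measured on 4 arrays. The deposited values are log2 expression values per probe set, from 2.56 to 14.78. Per the submitters' processing notes the authors used RMA, which corrects background, normalises by quantiles and summarises probes, and limma, with no version or settings. The array medians lay between 4.91 and 4.95, so values were used as deposited. Quantile normalisation removes any shift common to all transcripts. The number of arrays limits the precision. The 3' to 5' gaps of Actb and Gapdh were narrower in both knockout arrays than in both control arrays. RNA integrity or labelling length therefore cannot be told apart from genotype in any difference between the groups, and its part was not tested.

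Groups and replicate numbers come from the titles. Gene names of probe sets are those of the platform annotation. Of 45101 probe sets 64 Affymetrix controls were set aside. Of the rest, 34945 had 1 symbol, 932 several and 9160 none. All 10 member symbols matched a RefSeq gene table (GRCm38.p6) by gene ID. The 12 gene lists had 169 entries, 9 of which are not analysed here.

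A linear model with moderated variance (lmFit and eBayes of limma 3.58.1, R 4.3.3) set the knockout against the control over all 45037 probe sets of the 4 arrays, two-sided, with Benjamini-Hochberg adjustment and a threshold of 0.05. There were 2 residual and 4.11 prior degrees of freedom. The script was tested on simulated data. Every probe set of the 10 genes is named. From each list, up to 4 genes past the threshold are named, or the 1 with the largest difference, and Cdh1, Cdh2, Vim, Epcam, Pou5f1 and Nanog are always given. The members and lists were chosen with earlier results of these data known. Alternatives were other eBayes settings, scalings, filters and gene summaries, removal of each array's loess trend with gene span and level (span 0.3), the replicate number as a block, and omission of each array in turn.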

Additional observations from a re-analysis of the deposited data

How the results depend on the processing

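The count of 246 probe sets was 243 with arrays centred on their medians and between 244 and 368 with an intensity trend, robust eBayes, dim probe sets or those without a single gene name left out, or probe sets averaged (321). It was 568 (407 higher, 161 lower) after further quantile normalization, 754 (360 higher, 394 lower) with the brightest probe set of each gene and 518 with the gene span trend removed. Leaving out each array gave 0 to 173. The count of member probe sets called stayed at 1, Tcf4 1416724_x_at, with an intensity trend, robust eBayes, further quantile normalization or arrays centred on their medians. The same held with dim probe sets or those without a single gene name left out. Fits with an array left out hold 1 array in a group and cannot decide which member probe sets pass. With brightest probe sets the count was also 1, but there it was Zeb1, and the called Tcf4 probe set was not among those tested. The count was 2, both of Tcf4, with the span trend removed, and 0 with probe sets averaged. Of the genes in the lists, 2 were called with robust eBayes, with probe sets of a single gene name alone and with the span trend removed. After further quantile normalization and with probe sets averaged 3 were called, and with brightest probe sets 6. Against the Bacillus median plus 3 SDs, 14 member probe sets were above background in place of 12.

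With the replicate number as a block, 1536 probe sets passed (834 higher, 702 lower), 5 of them members (Prrx1 1425528_at, 1439774_at and 1425526_a_at, and Tcf4 1416724_x_at and 1424089_a_at) and 6 of them genes of the lists. The samples share only this number: the labels do not pair them, and the deviations of same-numbered arrays correlated at 0.11 over probe sets.

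Of 352 recomputed differences of member probe sets, 13 changed sign, all of probe sets whose difference was 0.31 or less in size. The Tcf4 1416723_at difference was 0.33 when Tcf4 probe sets were averaged, since the average takes in the probe sets that moved up. Tcf4 1434149_at was at 0.073 with the span trend removed. With arrays left out, the differences ran from -0.086 to 0.35 for Snai3 1456796_at, from -0.21 to 0.12 for Zeb2 1454200_at, from -0.18 to 0.086 for Zeb1 1443005_at and from -0.13 to 0.0038 for Zeb2 1458941_at. They ran from -0.18 to 0.12 for Prrx1 1432129_a_at, from -0.27 to 0.20 for Tcf4 1434149_at and from -0.038 to 0.26 for Prrx1 1458004_at. Other causes of these changes were not tested. Signal over background limits Snai1, Zeb2 and Foxc2. None of their probe sets passed in the fit over all probe sets, and their differences, read in or next to the background range, remain uncertain.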
